A study of Mus musculus with 18 samples.

Results

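The 10 genes described here (Glul, Oat, Tbx3, Lect2, Rhbg, Axin2, Lgr5, Nkd1, Notum and Sp5) are targets of Wnt/beta-catenin signalling, chosen by name from the 18193 genes that had a probe set of their own on the array. They were followed through all 20 of their probe sets, out of 45037 that were not controls, and no detection filter was applied, so that signal in only 1 or 2 tumours stayed visible. Expression was measured on 18 arrays of liver or hepatocellular carcinoma (HCC) from male mice, in a series that sets tumours of Tlr4-mutant and of antibiotic-treated animals against wild-type tumours. Normal liver was represented by 3 samples from C3H/HeOuJ wild-type animals aged 15 weeks. Wild-type tumours were 7 HCC lesions from C3H/HeOuJ animals aged 54 weeks, which had received 100 mg/kg of the liver carcinogen diethylnitrosamine (DEN) at week 12 and 6 injections of the hepatotoxin carbon tetrachloride (CCl4, 0.5 ml/kg) between weeks 13 and 23. Tlr4-mutant tumours were 5 lesions from the related substrain C3H/HeJ (Tlr4P712H), which carries an inactive receptor for bacterial lipopolysaccharide in every cell, after the same DEN and CCl4 at the same age. Antibiotic tumours were 3 lesions from C3H/HeOuJ animals on the same regimen whose drinking water held vancomycin at 500 mg/l and ampicillin, neomycin and metronidazole at 1 g/l from week 10 to week 54. All 15 tumours had thus received both DEN and CCl4. The labels do not say whether 2 lesions came from 1 animal, so a p-value here reflects only how far these samples spread.

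In canonical Wnt signalling, a ligand bound to a Frizzled receptor halts the destruction of beta-catenin, which then enters the nucleus and switches on genes together with T cell factors. In the liver this programme is active in the hepatocytes around the central vein, where it drives glutamine synthesis and ammonium handling, and it is low in the periportal hepatocytes that run the urea cycle. Mouse liver tumours with activated beta-catenin are known for high glutamine synthetase. No tumour genotype was used here.

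Promoter sequences show the stretch on which T cell factors could act. Promoters of 6 of the 10 genes were found in the RefSeq table (mouse build GRCm38.p6). The 250 bases before each start were searched on both strands for CTTTGAT and CTTTGAA, the letters usually bound by T cell factors. Such a match was found for Sp5 and Lect2 and not for Glul, Oat, Axin2 or Nkd1. That is 2 of 6 promoters (33.3%), against 2457 of 32851 promoters of the same length (7.48%). For Axin2 and Nkd1 all 250 bases searched lie inside the annotated gene, so the bases before that gene were not searched. A match is a run of letters and not a shown binding site. Sp5, Lect2, Glul and Oat are printed here because they stand for the matched and the unmatched genes, each 5′ to 3′ on the gene's own strand and ending at the base before the annotated gene, with the match in capitals. The Sp5 stretch lies at chr2:70474673-70474922 on the plus strand, and its CTTTGAT spans bases 104 to 98 before the start. The Lect2 stretch, 229 of the 250 bases because the annotated gene begins before the table's start, lies at chr13:56548560-56548788 on the minus strand, and its match spans bases 32 to 26 before the start and reads ATCAAAG because it is on the opposite strand. The Glul stretch lies at chr1:153899679-153899928 on the plus strand and the Oat stretch at chr7:132576399-132576648 on the minus strand.
Sp5: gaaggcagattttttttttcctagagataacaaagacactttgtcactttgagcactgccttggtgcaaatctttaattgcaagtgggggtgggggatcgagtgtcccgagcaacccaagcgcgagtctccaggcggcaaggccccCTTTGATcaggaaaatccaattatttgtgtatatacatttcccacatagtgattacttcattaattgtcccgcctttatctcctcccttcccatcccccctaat
Lect2: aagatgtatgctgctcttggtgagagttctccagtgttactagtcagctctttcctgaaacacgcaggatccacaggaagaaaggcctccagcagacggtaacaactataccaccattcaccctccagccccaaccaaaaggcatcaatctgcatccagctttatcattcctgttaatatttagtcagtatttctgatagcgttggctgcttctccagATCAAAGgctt
Glul: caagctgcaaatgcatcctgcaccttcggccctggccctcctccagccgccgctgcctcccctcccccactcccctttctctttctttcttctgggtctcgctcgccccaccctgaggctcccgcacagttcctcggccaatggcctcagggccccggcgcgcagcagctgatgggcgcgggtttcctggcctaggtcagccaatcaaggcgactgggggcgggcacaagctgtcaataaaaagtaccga
Oat: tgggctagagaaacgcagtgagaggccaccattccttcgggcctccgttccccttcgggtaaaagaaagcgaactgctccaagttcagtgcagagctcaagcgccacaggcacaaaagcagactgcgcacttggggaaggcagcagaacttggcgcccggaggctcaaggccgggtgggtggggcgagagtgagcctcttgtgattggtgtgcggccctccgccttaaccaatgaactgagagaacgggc

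The array values were log2 signals, on which a difference of 1 is a doubling, and a log2 signal of 4 (written log2 4) was taken as the level under which a signal was not told from background. Arrays have no read depth, and their number limits the precision. The 18 array medians lay between 2.69 and 2.73, and each array had 14427 to 15275 probe sets over log2 4. Tumours and normal livers also differed in technical controls. The 3' minus 5' signal of Gapdh was 1.37 to 1.61 in normal liver and 0.2 to 1.02 in tumours, and that of beta-actin was 3.59 to 4.2 against 1.85 to 2.79. The dap spike-in read 10.53 to 10.6 in normal liver and 1.24 to 1.91 in tumours. Age, treatment, labelling and RNA quality therefore cannot be told apart from tumour state in any comparison with normal liver. Of 8 hepatocyte markers none stayed at or below log2 4 on every array, and their summed signal was 16.79 to 16.89 in normal liver and 16.56 to 16.96 in tumours.

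The 10 genes set 2 of the wild-type tumours apart from the other 13 tumours. All 10 genes reached their highest tumour value in wild-type tumour 19 and their second highest in wild-type tumour 17 (numbers as in the labels), by the probe set of highest mean or, for Nkd1, by 1429506_at, chosen after its values were seen. Earlier results of these data had already set this pair apart, so the pair is described here and not tested. Over all probe sets, 16 of the 20 for these genes had tumours 17 and 19 as their top pair, against 3.65% of 45037 probe sets. Mutant tumour 23 was the next highest for 9 of the 10 genes, Tbx3 being the exception with wild-type tumour 21.

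**Figure D1:**
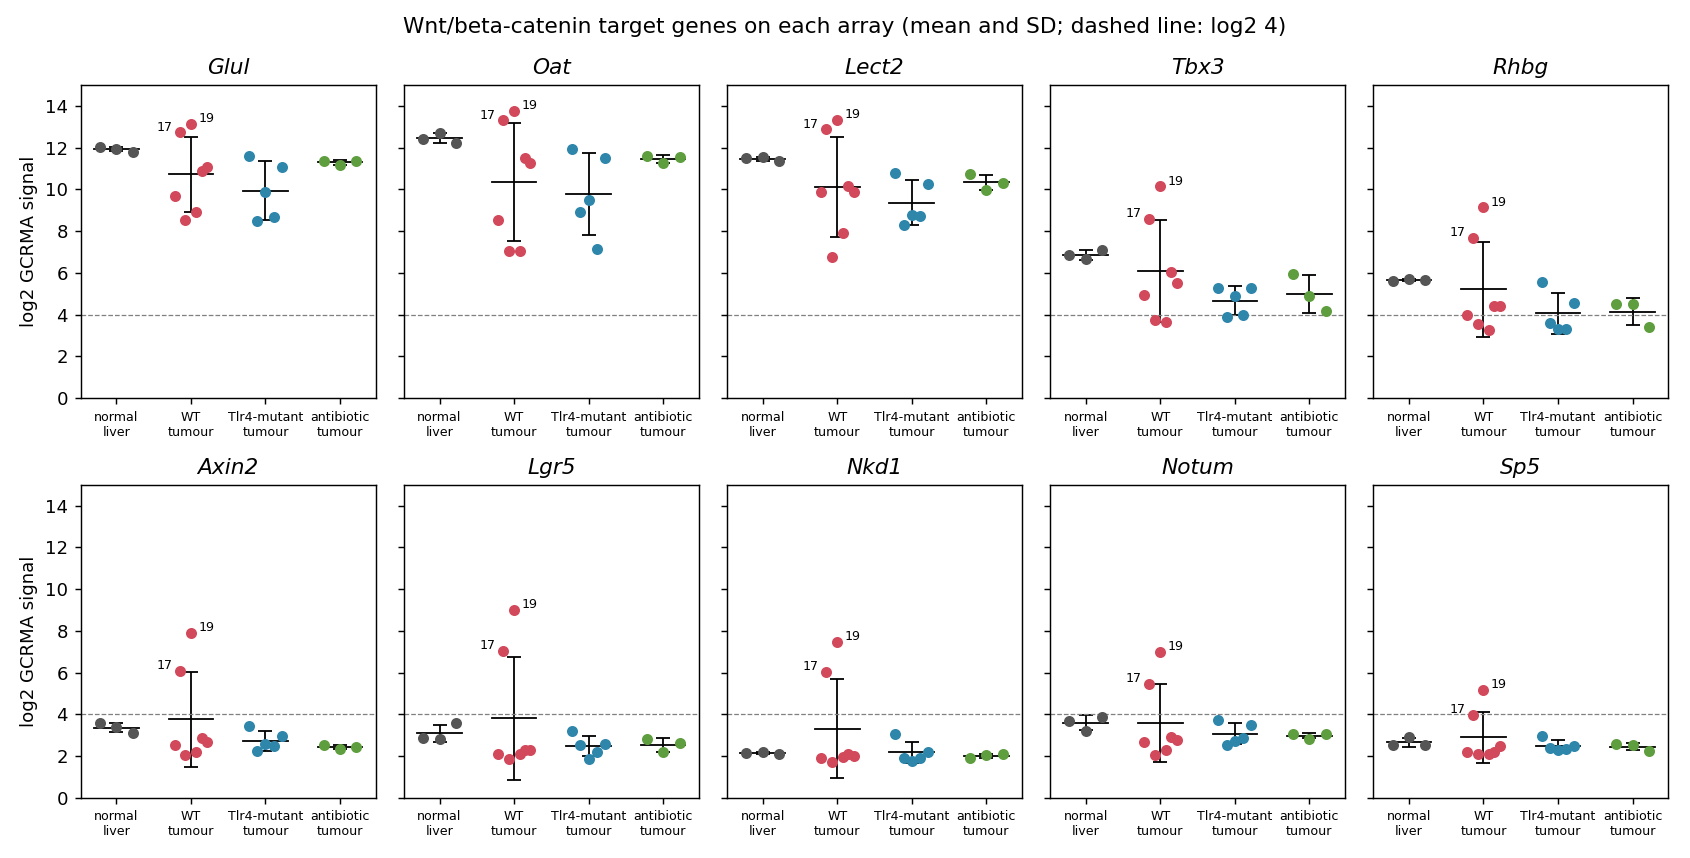
Log2 signal (vertical axis) of the 10 target genes on each of 18 arrays, by group (horizontal axis); points are arrays, the horizontal line and bar are the mean and SD, and the dashed line is log2 4. Wild-type tumours 17 and 19 are numbered and are the 2 highest tumours in every panel; Nkd1 is shown by probe set 1429506_at.

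Glul encodes glutamine synthetase, which fixes ammonium into glutamine in pericentral hepatocytes (chr1:153899929-153909723, GRCm38.p6). Its probe set 1426236_a_at read 12.02, 11.95 and 11.8 in the 3 normal livers. Wild-type tumours ran from 8.54 over a median of 10.88 to 13.14, with tumour 17 at 12.73 and tumour 19 at 13.14. The mutant tumours read 11.61, 8.47, 9.86, 8.69 and 11.07, and the antibiotic tumours 11.37, 11.16 and 11.35. Tumours 17 and 19 were thus above every normal liver, at 1.75 and 2.32 times the normal mean, and the other 13 tumours were below every normal liver. Between the lowest and the highest tumour the signal differed 25.3 times. The second probe set, 1426235_a_at, gave the same pair on top (11.33 and 12.21), read 9.02 to 9.33 in normal liver, and put 4 tumours (18, 20, 24 and 26) at 3.62 to 3.72, below log2 4. On it mutant tumour 23, at 9.73, also lay above normal liver.

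Oat encodes ornithine aminotransferase, a mitochondrial enzyme of the same pericentral cells that turns ornithine towards glutamate (chr7:132557475-132576398). It read 12.43, 12.72 and 12.23 in normal liver. Wild-type tumours ran from 7.03 over 11.24 to 13.75, with tumour 17 at 13.3. The mutant tumours read 11.92, 8.91, 9.47, 7.13 and 11.48, and the antibiotic tumours 11.6, 11.25 and 11.54. The tumours lay on both sides of normal liver in the same way as for Glul, over a 106-fold range.

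Lect2 encodes a chemokine-like protein that hepatocytes secrete (chr13:56529734-56548559). It read 11.5, 11.53 and 11.36 in normal liver, and 6.74, 9.89 and 13.33 as lowest, median and highest wild-type tumour, tumour 17 being at 12.87. The mutant tumours read 10.8, 8.28, 8.75, 8.73 and 10.27, and the antibiotic tumours 10.73, 9.98 and 10.28. Tumours 17 and 19 stood at 2.66 and 3.64 times the normal mean, and every other tumour was below normal liver.

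Rhbg encodes an ammonium transporter of the hepatocyte membrane (chr3:88242874-88254739). Normal livers were close together at 5.63, 5.7 and 5.65. Wild-type tumours ran from 3.28 over 4.42 to 9.13, and tumour 17 read 7.66, which put the pair at 4.01 and 11.1 times the normal mean. The mutant tumours read 5.55, 3.59, 3.29, 3.3 and 4.56, and the antibiotic tumours 4.52, 4.5 and 3.41. Among the tumours only 8 were above log2 4.

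Tbx3 encodes a T-box repressor of transcription (chr5:119670534-119684724) and had 5 probe sets. The one of highest mean, 1448029_at, read 6.86, 6.64 and 7.11 in normal liver. Wild-type tumours ran from 3.64 over 5.52 to 10.14, with tumour 17 at 8.59. The mutant tumours read 5.28, 3.86, 4.9, 4.0 and 5.27, and the antibiotic tumours 5.93, 4.87 and 4.16. Tumour 19 was at 9.66 times and tumour 17 at 3.29 times the normal mean, and the other 13 tumours were below normal liver. Probe set 1437479_x_at showed the same division, with 7.68 and 9.6 in tumours 17 and 19 against 6.4 to 6.48 in normal liver. Of the remaining 3, 1445757_at exceeded log2 4 in tumour 19 alone (4.48), and 1439567_at and 1444594_at did so on no array.

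The other 5 genes act within the pathway and were at or below log2 4 in every normal liver. Axin2 encodes a scaffold of the complex that degrades beta-catenin and is induced by the signal it limits (chr11:108917828-108950783). Its probe set 1436845_at read 3.59, 3.38 and 3.12 in normal liver, 6.08 in tumour 17 and 7.88 in tumour 19. The other 13 tumours read 2.06 to 3.44. Against the log2 4 limit tumours 17 and 19 were at least 4.23-fold and 14.8-fold higher. Its second probe set, 1421341_at, stayed below log2 4 throughout (at most 2.6).

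Lgr5 encodes a receptor for R-spondins, the ligands that amplify Wnt signals (chr10:115450314-115587780). It read 2.86, 2.84 and 3.57 in normal liver, 7.04 in tumour 17 and 9.01 in tumour 19, at least 8.23-fold and 32.3-fold above the limit. The other 13 tumours read 1.84 to 3.18. The second Lgr5 probe set, 1444519_at, stayed between 1.98 and 2.7 in tumours.

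Nkd1 encodes an inhibitor that binds Dishevelled (chr8:88521342-88594887), and its 4 probe sets disagreed. Probe set 1429506_at read 2.14, 2.2 and 2.08 in normal liver, 6.03 in tumour 17, 7.48 in tumour 19 and 1.72 to 3.06 in the other 13 tumours. Probe set 1417278_a_at read 4.42 in tumour 17 and 4.17 in tumour 19, and at most 3.2 in the other tumours. Probe sets 1429507_at and 1440446_at were below log2 4 on every array and did not set the pair apart. The former has the highest mean of the 4 and stands for Nkd1 wherever 1 probe set per gene is compared.

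Notum encodes a secreted enzyme that removes the lipid from Wnt ligands (chr11:120653788-120661193). It read 3.69, 3.19 and 3.89 in normal liver, 5.44 and 6.98 in tumours 17 and 19, and 2.03 to 3.74 in the other 13 tumours. Sp5 encodes a zinc-finger transcription factor (chr2:70474923-70477726) and read 2.53, 2.89 and 2.55 in normal liver. It exceeded log2 4 in tumour 19 alone, at 5.16, with tumour 17 at 3.97 and the other 13 tumours at 2.1 to 2.94. Above the limit Notum was at least 2.7-fold and 7.91-fold higher in tumours 17 and 19, and Sp5 at least 2.23-fold higher in tumour 19. For 5 probe sets of 4 genes (Axin2, Lgr5, Nkd1 and Notum) tumours 17 and 19 were the only tumours above log2 4.

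Tumours other than 17 and 19 were graded rather than alike. For the 5 genes above log2 4 in all normal livers (Glul, Oat, Tbx3, Lect2 and Rhbg), all 5 were above the highest normal liver in tumours 17 and 19, and all 5 were below the lowest normal liver in each of the other 13. The median difference of the 5 genes from the normal mean was 1.41 in tumour 17 and 1.87 in tumour 19. It was lowest in wild-type tumours 18 (-3.38) and 20 (-3.23) and in mutant tumours 24 (-3.18), 26 (-2.87) and 25 (-2.37). Wild-type tumours 16, 22 and 21 were at -1.91, -1.24 and -1.04. Mutant tumours 27 and 23 were at -1.1 and -0.54, and antibiotic tumours 28, 29 and 30 at -0.86, -1.21 and -1.18. Low and intermediate tumours occurred among both wild-type and mutant samples, and the 3 antibiotic tumours were close together. In whole tissue, fewer cells of a type and less RNA per cell cannot be told apart.

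**Figure D2:**
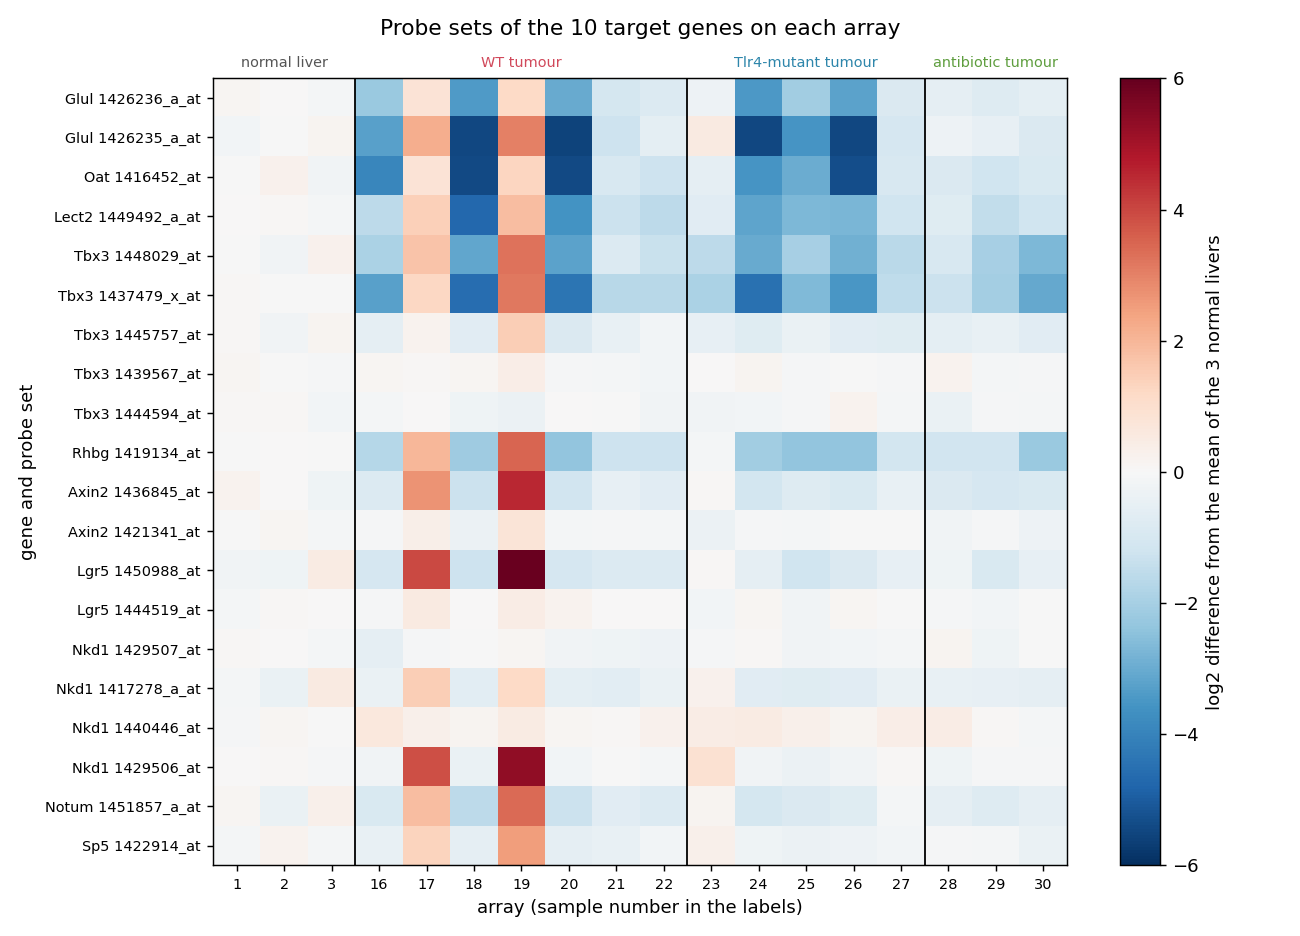
Log2 difference from the mean of the 3 normal livers (colour, blue lower and red higher, clipped at 6) for the 20 probe sets (rows) on 18 arrays (columns, numbered as in the labels). The columns of wild-type tumours 17 and 19 are red for at least 1 probe set of all 10 genes, while the upper probe set of Glul, Oat, Lect2, Tbx3 and Rhbg is blue in the other 13 tumours.

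The spread within groups differed as much as the means. For Glul (1426236_a_at) the mean was 11.92 ± 0.11 (SD, n = 3) in normal liver, 11.29 ± 0.12 (SD, n = 3) in antibiotic tumours, 10.71 ± 1.78 (SD, n = 7) in wild-type tumours and 9.94 ± 1.4 (SD, n = 5) in mutant tumours. Oat followed the same order, with 12.46 ± 0.25, 11.46 ± 0.19, 10.34 ± 2.82 and 9.78 ± 1.96, and so did Lect2, with 11.46 ± 0.09, 10.33 ± 0.38, 10.11 ± 2.39 and 9.37 ± 1.1. For Tbx3 the order was normal liver (6.87 ± 0.23), wild-type (6.1 ± 2.44), antibiotic (4.99 ± 0.89) and mutant tumours (4.66 ± 0.68). For Rhbg it was the same, with 5.66 ± 0.04, 5.2 ± 2.26, 4.15 ± 0.63 and 4.06 ± 0.98. No neighbouring pair in these orders passed the limma test over all 18 arrays. For these 5 genes wild-type tumours overlapped each of the other groups, and normal liver was apart from both mutant and antibiotic tumours.

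Wild-type tumours were compared with normal liver to ask how the targets stand in HCC. None of the 20 probe sets passed the test (limma, adjusted p under 0.05 over 45037 probe sets), where 18.9% of all probe sets did, and none was without overlap, where 20.6% were. At an unadjusted p under 0.05 there was 1. The median log2 change of the 20 was -0.07, against -0.03 for all probe sets. Glul differed by -1.21 ± 0.85 (SE, limma adjusted p = 0.352), Oat by -2.12 ± 1.29 (0.281) and Lect2 by -1.35 ± 1.02 (0.396). Rhbg differed by -0.46 ± 0.97 (0.795), Tbx3 by -0.78 ± 1.02 (0.654), Axin2 by 0.39 ± 0.93 (0.815) and Lgr5 by 0.72 ± 1.19 (0.73). The values of these last 2 genes are differences of fitted means with every normal liver below log2 4, and no fold is given.

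Leaving out tumours 17 and 19, a choice made with earlier results known that removes the 2 highest wild-type values of these genes, turned this comparison. Then 11 of the 20 probe sets were called, against 17.3% of all probe sets, and the genes named here were lower. Removing their highest wild-type values had to lower the wild-type means. It also narrowed the spread, for Lgr5 from a standard error of 1.19 to 0.24. The calls and p-values below therefore describe the arrays left and are no test of these genes. With limma, Glul fell by 2.1 (adjusted p = 0.0363), Oat by 3.39 (0.0378), Lect2 by 2.55 (0.0182), Tbx3 by 2.08 (0.0129) and Rhbg by 1.73 (0.0139). Notum was called lower (-1.07, limma adjusted p = 0.0102). Axin2 (-0.9), Lgr5 (-0.97) and Sp5 (-0.44) took the opposite sign and passed as well (limma adjusted p = 0.0133, 0.0111 and 0.0493). These last 4 genes were below log2 4 on every array that remained, so their differences lie within the range not told from background. Leaving out tumour 17 or 19 alone gave no call, but without tumour 19 alone Axin2, Lgr5 and Sp5 were already below 0 (-0.295, -0.153 and -0.147), without a call.

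**Figure D3:**
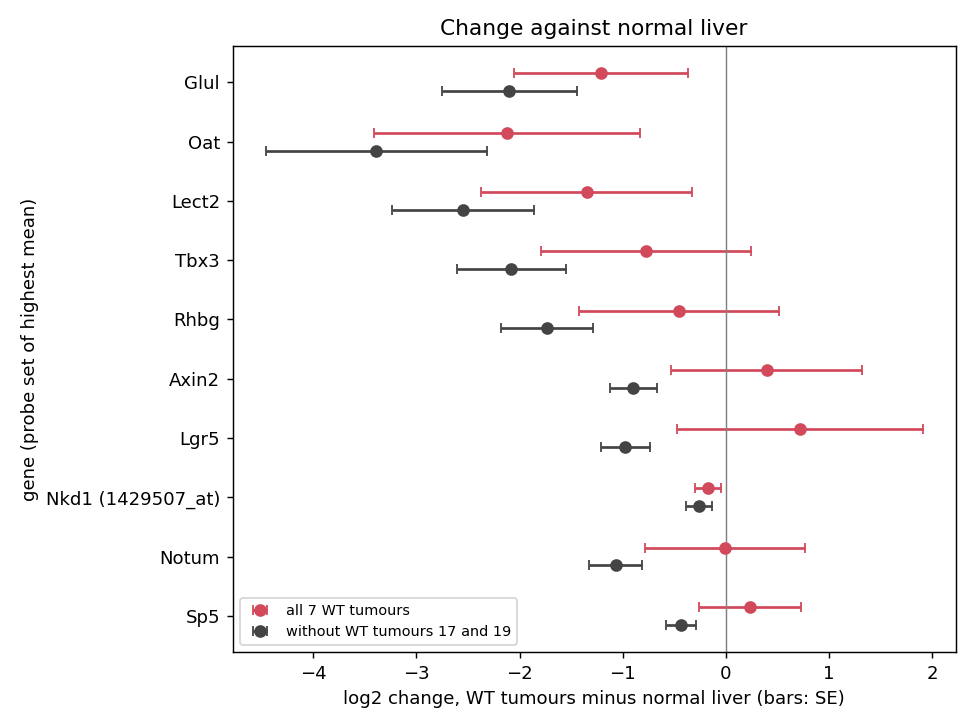
Log2 change of each gene's probe set of highest mean (rows), wild-type tumours minus the 3 normal livers (horizontal axis), with bars for the standard error, from all 7 wild-type tumours (red) and without tumours 17 and 19 (dark). Every gene lies further to the left without the pair, and Axin2, Lgr5 and Sp5 move from above to below 0.

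Mutant tumours were compared with wild-type tumours for the part of Tlr4, whose substrain differs as well. None of the 20 probe sets was called, where 0.118% of all probe sets were, and none was without overlap, where 1.18% were. The median log2 change of the 20 was -0.53, with 17 below 0, against 0.01 for all probe sets. Glul differed by -0.77 ± 0.72 (SE, limma adjusted p = 0.714), Tbx3 by -1.44 ± 0.87 (0.532) and Rhbg by -1.15 ± 0.82 (0.613). Axin2 and Lgr5 were below log2 4 in every mutant tumour (means of 2.73 and 2.49) and had wild-type means of 3.75 and 3.81, so no fold is given. These differences rested on tumours 17 and 19. Without the pair Glul differed by 0.12, Oat by 0.711 (from -0.563), Lect2 by 0.451 (from -0.745), Rhbg by 0.13 and Tbx3 by -0.129, none of them called, and without tumour 19 alone Tbx3 differed by -0.762 and Glul by -0.365. With 1 probe set per gene, 9 of the 10 genes were below 0 with all arrays and 1 of 10 without the pair. Axin2, Lgr5, Nkd1, Notum and Sp5 were then below log2 4 on every array left. For every gene but Nkd1 the pair held the highest wild-type values, so leaving it out had to raise these differences. The count of signs is therefore no test. Antibiotic tumours against the same wild-type tumours gave no call either (0.0799% of all probe sets) and no group without overlap (3.52%). There the median was -0.35 and 15 of 20 were below 0, while Glul (0.58 ± 0.85) and Oat (1.12 ± 1.29) were above 0 with limma adjusted p = 0.838 and 0.785. At an unadjusted p under 0.05, limma gave 0 of the 20 in both comparisons. Both comparisons use the same 7 wild-type tumours, 17 and 19 among them. Without that pair neither gave a call. Against antibiotic tumours the count of genes below 0 went from 6 to 1 of 10, with Tbx3 at 0.2, Rhbg at 0.22, Glul at 1.47 and Oat at 2.39. There too, leaving out the highest wild-type values had to raise the differences.

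Mutant and antibiotic tumours were set against each other to compare the 2 interventions. No probe set of the 10 genes was called (0.0488% of all probe sets were), none had an unadjusted p under 0.05 with limma, and none was without overlap (4.49% were). Glul differed by -1.35 ± 0.9 (SE, limma adjusted p = 0.756) and Oat by -1.68 ± 1.37 (0.808), mutant minus antibiotic. The mutant arrays of both genes spanned the range of the antibiotic arrays.

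Mutant tumours against normal liver gave no call in the fit of all 18 arrays (9.92% of all probe sets were called), with 3 of the 20 at an unadjusted p under 0.05. The groups did not overlap for 8 of 20 probe sets, of Glul, Oat, Tbx3, Lect2, Rhbg and Nkd1, against 21.6% of all probe sets. In 2 of the 8, of Tbx3 and Nkd1, both groups were below log2 4 throughout. Of these 8, 7 were lower in tumours, and the exception was the Nkd1 probe set 1440446_at, which was below log2 4 on every array. Glul differed by -1.98 ± 0.9 (SE, limma adjusted p = 0.177), Oat by -2.68 ± 1.37 (0.239), Tbx3 by -2.21 ± 1.08 (0.217), Lect2 by -2.1 ± 1.08 (0.245) and Rhbg by -1.6 ± 1.03 (0.365). A fit of these 2 groups alone, whose spread leaves out the wild-type tumours, called 5 of 20 (13.2% of all probe sets), among them Tbx3 (adjusted p = 0.00237), Lect2 (0.0186) and Rhbg (0.0416). With tumours 17 and 19 left out of the joint limma fit, 4 of 20 were called (11.6% of all), and with tumour 19 alone left out, 1.

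Antibiotic tumours against normal liver likewise gave no call in the joint fit (6.89% of all probe sets were called), and 0 at an unadjusted p under 0.05 with limma. The 3 tumours lay below all 3 normal livers for 12 of 20 probe sets, of 9 genes, against 27.1% of all probe sets without overlap in either direction. In 5 of the 12 (Axin2, Lgr5, Nkd1, Notum and 1 probe set of Tbx3) both groups were below log2 4 throughout, so the lack of overlap there lies within background, and the other 7 were of Glul, Oat, Tbx3, Lect2 and Rhbg. Sp5 was the gene that overlapped. A fit of these 2 groups alone called 7 of 20 (4.62% of all probe sets). By limma in that fit Glul fell by 0.63 (adjusted p = 0.0201), Lect2 by 1.13 (0.0182), Tbx3 by 1.89 (0.0448) and Rhbg by 1.51 (0.0376). Oat fell by 0.995 (limma adjusted p = 0.013), and Axin2 was called lower (0.0242) with both groups below log2 4, at means of 2.43 and 3.36. In the joint fit the standard error of the Glul difference was 1.0, and with these 2 groups alone it was 0.11. With tumours 17 and 19 left out of the joint fit, 2 of 20 were called (8.35% of all).

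Glul and the other targets followed each other across the tumours. Ranked by Spearman's correlation over the 15 tumours among 8936 other genes, as a description without a test, the 5 genes most like Glul were Lect2 (0.94), Rgn (0.93), Oat (0.92), Lhpp (0.92) and Ang (0.9). Rgn encodes the calcium-binding protein regucalcin and Ang a secreted ribonuclease. Tbx3 ranked 42nd (0.78) and Rhbg 58th (0.76). With tumours 17 and 19 set aside, the correlations of Glul were 0.88 with Oat, 0.9 with Lect2, 0.65 with Tbx3 and 0.63 with Rhbg over 13 tumours. Of the 15 tumours, 11 were above log2 4 for Tbx3 and 8 for Rhbg. Part of the ranks of these 2 genes are therefore ranks among background values. The 5 genes most like Axin2 among 8937 were Nxpe2 (0.91), Txlng (0.91), Tbx3 (0.89), Abhd6 (0.85) and Ilrun (0.85). Since Axin2 was above log2 4 in 2 tumours only, its ranks below that pair are ranks among background values.

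**Figure D4:**
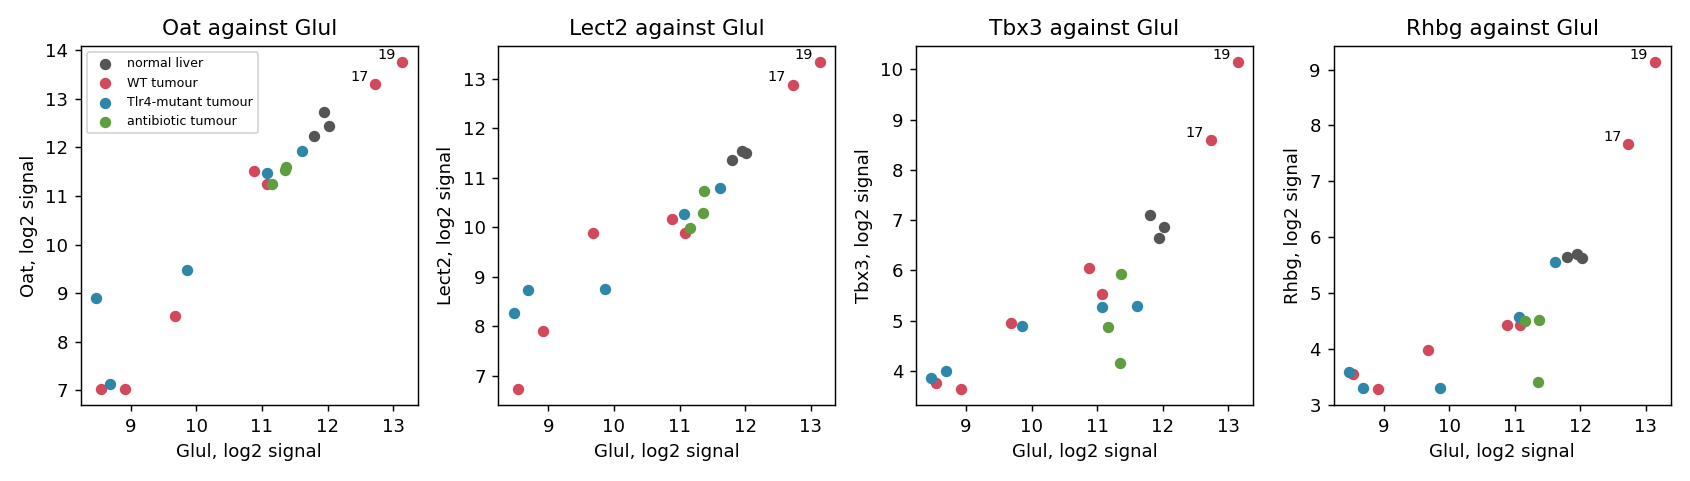
Log2 signal of Oat, Lect2, Tbx3 and Rhbg (vertical axes) against that of Glul (horizontal axes) on 18 arrays, coloured by group. Wild-type tumours 17 and 19 lie at the upper right of the normal livers in all 4 panels and the other 13 tumours to their lower left.

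The rest of the pathway was read from 8 lists of 116 genes, of which 111 had a probe set of their own. In wild-type tumours against normal liver 8 rose and 18 fell, against 21.0% of all genes called in either direction, and the median log2 change was -0.1 (all genes -0.03). Of these 26, 4 (Wnt3a, Wnt9a, Frzb and Wif1) were below log2 4 on every array. Without tumours 17 and 19, a check added after seeing the data, 6 rose and 22 fell (19.5% of all genes called), of which 5 and 15 had been called before. No gene of the lists was called between mutant and wild-type tumours (0.137% of all genes were) or between antibiotic and wild-type tumours (0.033% were).

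Of 21 ligands and R-spondins 5 were called lower and none higher, a share (23.8%) near the 21.0% of all genes. For 3 of the 5 no fold can be given, since Wnt3a and Wnt9a were never above log2 4 and Wnt2 exceeded it on 1 array only. Wnt5b fell by 2.1 (SE 0.46, limma adjusted p = 0.00389). Rspo3, the R-spondin of central vein endothelium, was above log2 4 in 2 of 3 normal livers (mean 4.33) and below log2 4 in every wild-type tumour, at least 1.25-fold lower (limma adjusted p = 0.0155). Wnt2, a ligand of liver endothelium, was called lower (limma adjusted p = 0.00456) at means of 2.33 in wild-type tumours and 3.48 in normal liver. Of 14 receptors 4 fell, a share of 28.6% against the 21.0% of all genes. Fzd8 fell by 2.23 (SE 0.34, limma adjusted p = 0.000278), Fzd4 by 1.44, Fzd7 by 1.04 and Lgr4, a second R-spondin receptor, by 0.56. Without tumours 17 and 19, Fzd7 no longer passed (-0.98, limma adjusted p = 0.0542). The summed signal of 8 endothelial markers, of which Vwf was never above log2 4, was 9.38 to 10.33 in normal liver and 5.91 to 10.79 in wild-type tumours, and its part in the ligand values was not tested.

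Among 15 cytoplasmic regulators 3 rose and 1 fell, a share of 26.7% against the 21.0% of all genes called in either direction. Ctnnb1, which encodes beta-catenin, rose by 0.56 (SE 0.13, limma adjusted p = 0.00518). It read 12.35 in tumour 17, inside the 11.78 to 12.67 of the other 13, and 12.71 in tumour 19, just above that range. Axin1 rose by 0.45 and Tnks2, a tankyrase that marks Axin for degradation, by 0.47, and neither passed without tumours 17 and 19 (0.36 and 0.38, limma adjusted p = 0.112 and 0.0867). Amer1, a membrane anchor of the degradation complex, fell by 0.77. Apc, its core scaffold, differed by 0.36 (SE 0.13, limma adjusted p = 0.0674). Of 11 nuclear factors Bcl9l, a co-activator, fell by 0.97 (SE 0.19, adjusted p = 0.00221). Tcf7l2, the main T cell factor of liver, fell by 0.63 (SE 0.22, adjusted p = 0.0496), but did not pass without the pair (-0.57, 0.0726). Lef1, a T cell factor low in normal liver, was below log2 4 on every array, at 3.32 and 3.21 in tumours 17 and 19 and 1.26 to 2.02 in the other 13. Tle1, a co-repressor, read 11.08 and 11.05 in the pair and 8.76 to 9.83 elsewhere among the tumours.

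Of 12 targets described in other tissues 4 rose and none fell, a share of 33.3% against the 21.0% of all genes called in either direction. Ccnd1, which encodes the cell cycle protein cyclin D1, rose by 2.74 (SE 0.41, limma adjusted p = 0.00021). Its tumour 17 and 19 values, 10.57 and 10.46, lay inside the 8.69 to 11.23 of the other tumours. The mitotic gene Birc5, below log2 4 in every normal liver, rose at least 4.75-fold to a mean of 6.25 (limma adjusted p = 0.00215). Jun, a subunit of AP-1, rose by 1.88 (SE 0.53, limma adjusted p = 0.0187), but reached only 1.64 (0.0524) without the pair. Cd44, a hyaluronan receptor, rose at least 4.29-fold (limma adjusted p = 0.0179), also from below log2 4, and without the pair at least 1.91-fold (fitted difference 2.38, limma adjusted p = 0.0162). It was highest in the pair, at 8.33 and 9.72 against 3.02 to 6.22 in the other 13 tumours. The summed cholangiocyte and progenitor signal was 5.18 to 5.35 in normal liver, 6.67 to 10.86 in the other 13 tumours, and 11.52 and 11.27 in tumours 17 and 19. Its defining markers Krt19 and Krt7 were never above log2 4. Sox9, also in that list, was not high in the pair, at 3.2 and 3.14 against 2.89 to 5.53 in the other 13 tumours. The sum in the pair thus rested on the list's other markers and does not by itself show such cells. The part of cholangiocytes or progenitors in the target values was not tested.

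Of 19 inhibitors 1 was called higher and 2 lower, a share (15.8%) below the 21.0% of all genes. Frzb, the one called higher, and Wif1, called lower, were at or below log2 4 on every array. Dkk4, a secreted antagonist of Wnt co-receptors, was also called lower (limma adjusted p = 0.00919), with 5.14, 3.66 and 3.28 in the 3 normal livers and every wild-type tumour below log2 4, so that 1 normal liver alone was above the limit and no fold is given. Of the 19, 5 were highest in tumours 17 and 19. Among these 5, Wif1 lay within background, and Dkk2 exceeded log2 4 in tumour 19 alone (6.25, with 2.92 in tumour 17). Apcdd1, a membrane inhibitor of Wnt, read 7.67 in tumour 17 and 10.74 in tumour 19, against 2.72 to 3.59 in the other 13 and a normal mean of 2.84. Rnf43 and Znrf3 encode ubiquitin ligases that remove Frizzled receptors. Rnf43 read 6.72 and 8.71 in the pair and 3.91 to 6.22 in the others, and Znrf3 8.29 and 9.09 against 5.95 to 7.14. Across wild-type tumours neither passed against normal liver (0.17 ± 0.7 and -0.35 ± 0.49, SE, limma adjusted p = 0.903 and 0.679). Without the pair Znrf3 fell by 0.99 (limma adjusted p = 0.00844), which is no test, since its 2 highest values had been left out. In the 8 lists together 20 of 111 genes had tumours 17 and 19 on top, against 3.77% of all genes. Of these 20, Lrp5, Lef1, Wif1 and Fosl1 were never above log2 4. The pair was at the bottom for 10 of the 111, against 5.43% of all genes, and 6 of these were periportal. Ctnnbip1, an inhibitor, read 3.02 and 3.47 in the pair and 5.18 to 6.22 in the other 13 tumours. The nuclear factors Tcf7l1 (3.48 and 3.64 against 4.25 to 5.5) and Tle4 (4.44 and 6.18 against 6.34 to 7.97) were lowest there too.

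Many zonal genes of hepatocytes, though not all, divided the same 2 tumours from the rest. Of 10 other pericentral genes 6 had tumours 17 and 19 on top, against 3.77% of all genes. The gap was narrow for Cyp1a2 and Rgn. There tumour 17 read 12.19 and 13.09, against at most 12.12 and 12.98 in the other 13 tumours. For both genes the pair lay below the normal means of 13.11 and 13.3. Avpr1a, a vasopressin receptor, read 9.94 and 10.21 in the pair and 2.8 to 7.77 in the other 13 tumours. Slc13a3, a dicarboxylate carrier, read 12.31 and 12.82 against 6.75 to 9.51. Cyp2e1 and Cyp7a1, also pericentral, did not follow. Nr1i3, the nuclear receptor CAR, read 7.15 and 5.5 in the pair, inside the 4.11 to 8.5 of the others. In wild-type tumours against normal liver Nr1i3 fell by 2.46 (SE 0.77, limma adjusted p = 0.0332). It was the 1 called of the 10, a share of 10.0% against the 21.0% of all genes. Without the pair it no longer passed (-2.45, limma adjusted p = 0.0525). Of 9 periportal genes 6 had the pair at the bottom, against 5.43% of all genes. Ass1, Asl and Pck1 did not. Otc did by a narrow gap, with tumour 17 at 11.45 against at least 11.52 in the other 13 tumours. Ass1 read 6.23 and 4.15 in the pair, inside the 3.76 to 7.71 of the other 13 tumours. For Asl and Pck1, tumour 17 (9.48 and 12.09) lay inside the range of the others and tumour 19 (8.69 and 8.37) below it. Hal, which breaks down histidine, read 5.26 and 4.58 in the pair and 9.68 to 11.21 in the other 13. Cyp2f2 read 2.92 and 3.58, below log2 4, against 7.6 to 12.28. The urea cycle gene Arg1 read 11.35 and 9.56 against 13.0 to 13.53, and Cps1 11.86 and 9.35 against 12.28 to 13.41. In wild-type tumours against normal liver 3 of the 9 periportal genes fell, a share of 33.3% against the 21.0% of all genes called in either direction. Cyp2f2 fell by 5.18 (SE 1.62, limma adjusted p = 0.0322), Ass1 by 1.99 and Asl by 1.47. Without the pair Cyp2f2 fell by 3.21 (limma adjusted p = 0.0376).

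**Figure D5:**
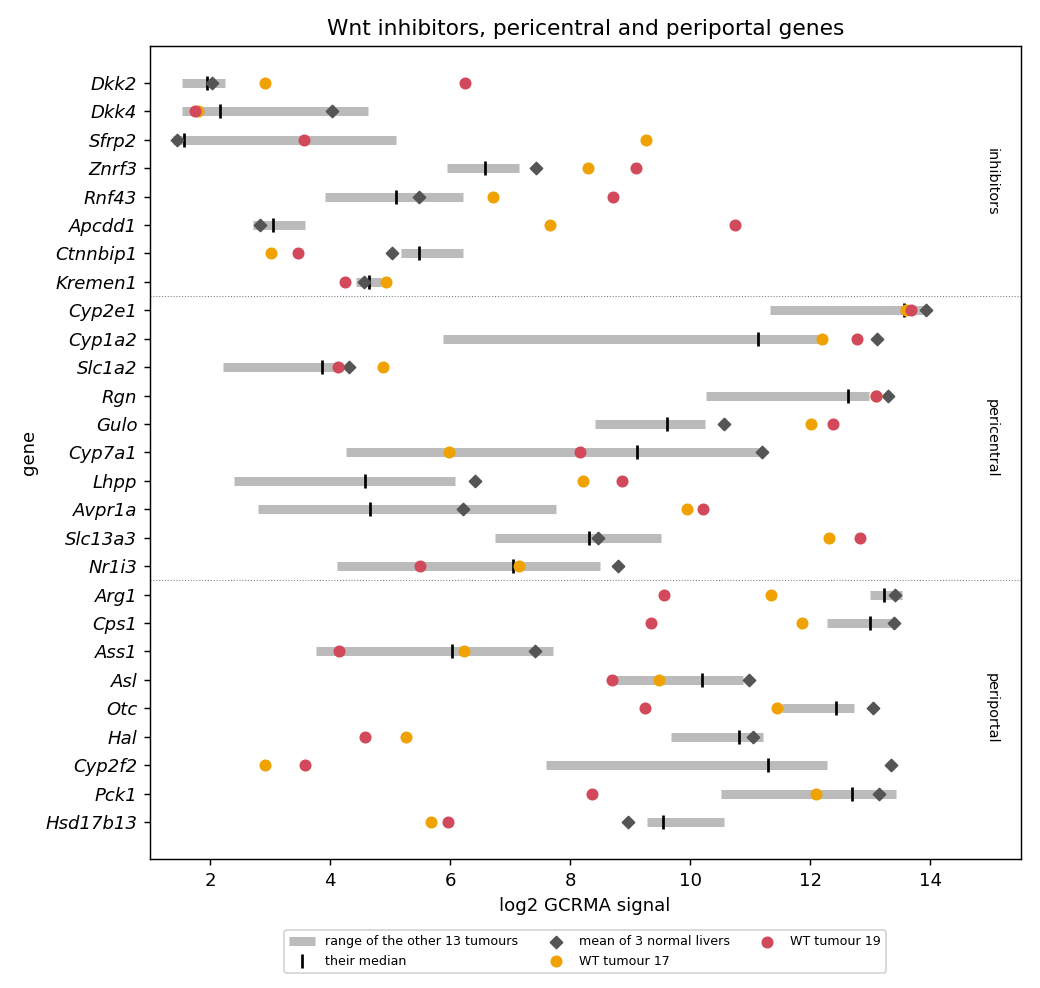
Log2 signal (horizontal axis) of Wnt inhibitors above log2 4 on any array, the other pericentral genes and the periportal genes (rows). Orange and red points are wild-type tumours 17 and 19, grey bars the range of the other 13 tumours with a tick at their median, and diamonds the mean of 3 normal livers; the pair lies right of the bar for Apcdd1, Slc13a3 and Avpr1a and left of it for Hal, Arg1 and Cyp2f2.

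Other cell type markers in tumours 17 and 19 were read beside these values. The 8 hepatocyte markers summed to 16.6 and 16.56, against 16.71 to 16.96 in the other 13 tumours. Endothelial markers summed to 5.91 and 8.19, against 8.79 to 11.18, and the 8 stellate and fibroblast markers to 9.0 and 10.73, against 10.27 to 12.22. Macrophage markers summed to 7.91 and 8.43, inside the 7.76 to 11.46 of the others. All 4 markers of T and NK cells and all 3 of B cells were at or below log2 4 on every array. The Gapdh 3' minus 5' difference was 0.2 and 0.56 in the pair, inside or at the edge of the tumour range. The part of other cells in the target gene values was not tested.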

How the data were processed

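The authors deposited log2 values made with GCRMA, which corrects background, normalizes arrays and summarises each probe set, per the submitters' processing notes; its version is not given in the sources used here. RNA from 18 samples had been labelled for a 3' oligonucleotide array, per the labels' protocols. Of 45101 probe sets 64 controls were left out. Probe sets were named from GEO's platform table (34945 with 1 symbol, 932 with several, 9160 with none), and 34741 were found in a gene table by Entrez identifier, with 0 symbols changed. Groups and sample numbers come from the sample titles, and 0 value columns stayed unmapped.

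All 18 arrays entered 1 limma fit (limma 3.58.1, R 4.3.3) of 4 group means, with a mean-variance trend, two-sided tests and Benjamini-Hochberg adjustment over 45037 probe sets; an adjusted p under 0.05 counted as called. A gene's probe set of highest mean over all arrays stood for it where 1 was needed. Groups did not overlap where every array of the first lay above or below every array of the second. Where every array of 1 group was at or below log2 4, a fold is given only as a bound and only where it exceeds 1; fitted log2 differences printed for such genes are described as lying at or within background. A marker list's summed signal is log2 of the sum of its linear signals.

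The 10 genes, the pathway and marker lists and the alternatives were chosen with earlier results of these data known. Named were the 10 genes, Ctnnb1, Apc, Tcf7l2, Lef1, Znrf3 and Rnf43, up to 3 called list genes of largest change per contrast and direction, and the 5 genes most like Glul and Axin2; other list genes were picked with their values in view. The alternatives were no trend, a filter at log2 4 on at least 3 arrays, 1 probe set per gene, centred arrays, quantile normalization, a fit of only the 2 groups compared, a 2-fold minimum, an adjusted p under 0.01, robust variances, leaving out tumours 17 and 19, and leaving out each array in turn. The fit was tested on simulated data. Figures and summaries used python 3.11.15, pandas 2.3.3, scipy 1.17.1 and matplotlib 3.10.9.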

Additional observations from a re-analysis of the deposited data

Results flagged for a closer look

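Of 40 sets of 4 to 10 samples tested (20 probe sets in wild-type and in mutant tumours), 2 held a sample far from the rest of its group, and chance gives about 1 in 20. Probe set 1439567_at of Tbx3 read 2.15 in mutant tumour 24, with the nearest of the other mutant tumours at 1.98. Probe set 1421341_at of Axin2 read 1.48 in mutant tumour 23, with the nearest at 1.7. Both values are below log2 4 and neither probe set exceeded log2 4 on any array. Wild-type tumours 17 and 19 met this criterion for no probe set. It compares 1 sample with its nearest neighbour, so 2 samples that stand out together can go unflagged.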

How the results depend on the processing

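No probe set of the 10 genes was called in any of the 6 comparisons by the main test, and this held under 8 of the 11 alternatives. For the 2-fold minimum and the adjusted p under 0.01 this was fixed in advance, since they only narrow the main calls. The filter at log2 4 tested 7 of the 20 probe sets, and 1 probe set per gene with that filter tested 5. With wild-type tumours 17 and 19 left out, 11 of 20 were called in wild-type tumours against normal liver, 4 in mutant tumours against normal liver and 2 in antibiotic tumours against normal liver. In that fit the changes of Axin2 (-0.898), Lgr5 (-0.974) and Sp5 (-0.438) in wild-type tumours against normal liver had the opposite sign to the main values of 0.39, 0.72 and 0.23. In mutant against wild-type tumours, Glul, Oat and Lect2 also turned from -0.77, -0.563 and -0.745 to 0.12, 0.711 and 0.451 without the pair, none of them called. Leaving out the highest wild-type values had to move all these differences in the direction seen. The 11 calls in wild-type tumours against normal liver are therefore no test. With only the 2 groups compared, 5 were called in mutant and 7 in antibiotic tumours against normal liver. Leaving out each array in turn gave 0 to 1 for mutant tumours against normal liver (1 without wild-type tumour 19) and 0 in the other 5 comparisons. The list genes called against normal liver went from 8 to 6 higher and from 18 to 22 lower without tumours 17 and 19. No paired analysis was possible because the groups share no sample numbers. Another scaling moved the median of all probe sets by under 0.1 in every comparison. The number of arrays limits what can be seen, above all the 3 antibiotic tumours and 3 normal livers, and 6 of the 20 probe sets were below log2 4 on every array.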
